A study of Caenorhabditis elegans with 4 samples.

Results

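The genes described are the 129 genes that the Caenorhabditis elegans annotation (WBcel235, Ensembl release 115) classes as small nuclear RNA (snRNA) genes, out of 29399 annotated genes other than pseudogenes, piRNA genes and mitochondrial genes. A gene was counted as having a peak when the summit, the base of highest enrichment in a peak, was at most 1000 bp before or 200 bp after an annotated start. The peaks came from ChIP-seq, the sequencing of DNA fragments pulled down with an antibody against a protein bound to them, here SEA-2. SEA-2 has C2H2 zinc fingers and is best known from worm sex determination, where it acts as a signal from the autosomes. All libraries came from whole L3 larvae, both sexes mixed, of strain OP193, which is mutant for unc-119(ed3) and carries the integrated transgene wgIs193, in which SEA-2 bears TY1, EGFP and FLAG tags beside an unc-119 rescue copy; the age of the larvae is given as unknown. There was 1 group of 4 biological replicates and no second condition, strain or stage, so no difference between conditions could be measured. The tagged protein came from a transgene in a single strain, whose promoter the labels do not name, and whole animals mix all tissues, so a peak cannot be placed in a cell type. In replicates 1 and 2 the labels state sizes of 150 to 350 bp and name a stock centre as the source; in replicates 3 and 4 they give microtip sonication and the laboratory itself. The deposited lists held 312 peaks in the final list, which kept reproducible peaks, 3912 peaks in the list called on the pooled replicates, and 23684, 30000, 30000 and 30000 peaks in replicates 1 to 4. The pooled list is labelled as peaks and background entered for the test of reproducibility, so it includes weak peaks.

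Small nuclear RNAs are the RNA parts of the spliceosome, the machine that removes introns. U1 RNA pairs with the 5′ splice site, U2 with the branch site, U5 holds the exon ends, and U6, which is joined to U4 until activation, takes over the 5′ splice site and forms the catalytic core. In nematodes a further set, the spliced leader RNAs, donates its 5′ end to messenger RNAs by trans-splicing: SL1 to most trans-spliced transcripts and SL2 mainly to downstream genes of operons, with the SmY RNAs as partners in that reaction. Most snRNA genes are transcribed by RNA polymerase II and U6 genes by RNA polymerase III, and in both cases the complex SNAPc binds a proximal sequence element upstream of the start; a TATA box beside that element is typical of U6 genes.

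The strongest snRNA gene peak lay over the start of W05B2.8, a gene of 102 bases that spans chrIII:10989679-10989780 on the plus strand of build ce11. It holds the letters ACAGAGA, the stretch by which U6 RNA pairs with the 5′ splice site. The annotation gives no U number to any of the 129 genes, so families are named here by a member.
The 80 bases before the start, from the RefSeq genome of the same build, are printed for 3 genes of its family, with capitals for TATATAA at position -31 and for TGTC at -56 and AACCC at -67, which lie 6 bases apart, where these are present. The first and the third gene had a pooled peak; the second, R07E5.16, has the same transcribed sequence as W05B2.8 but had none.
W05B2.8 upstream, chrIII:10989599-10989678, plus strand: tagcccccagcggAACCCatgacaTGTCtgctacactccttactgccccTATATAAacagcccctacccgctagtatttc
R07E5.16 upstream, chrIII:4414105-4414184, plus strand: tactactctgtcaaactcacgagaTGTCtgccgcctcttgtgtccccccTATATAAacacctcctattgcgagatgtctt
F54D8.7 upstream, chrIII:5080899-5080978, minus strand: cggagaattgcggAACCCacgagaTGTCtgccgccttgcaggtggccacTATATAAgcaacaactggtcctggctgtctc

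The next strongest were SL2 genes, sls-2.1 and sls-2.4. The transcribed sequence of sls-2.1 (110 bases, chrII:5844865-5844974, plus strand) shows what these genes make: an RNA whose 5′ end is spliced onto other transcripts.
sls-2.1 transcribed sequence: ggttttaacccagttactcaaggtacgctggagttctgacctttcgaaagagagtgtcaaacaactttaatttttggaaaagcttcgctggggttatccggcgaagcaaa
The 80 bases before the start are printed for 3 SL2 genes that share CCTCGAA at position -58, in capitals, with TGTC at -48 in capitals where it is present. The first and the second had a pooled peak and the third, sls-2.3, had none.
sls-2.1 upstream, chrII:5844785-5844864, plus strand: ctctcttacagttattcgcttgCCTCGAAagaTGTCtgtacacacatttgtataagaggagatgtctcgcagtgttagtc
sls-2.2 upstream, chrII:5543518-5543597, plus strand: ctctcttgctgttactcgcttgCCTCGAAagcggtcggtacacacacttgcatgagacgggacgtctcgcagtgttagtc
sls-2.3 upstream, chrII:5544274-5544353, minus strand: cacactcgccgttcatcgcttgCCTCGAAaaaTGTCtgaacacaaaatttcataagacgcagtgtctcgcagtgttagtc

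SEA-2 peaks lay at few snRNA genes. In the final list 3 of 129 had a summit in the window, W05B2.8, sls-2.1 and sls-2.4, which is 2.33% (exact 95% binomial interval 0.482 to 6.65%), against 1.3% of all genes. In the pooled list 10 of 129 did, or 7.75% (3.78 to 13.8%), against 9.86% of all genes. Both intervals held the share of all genes, so no difference from it was detectable with this number of genes; the intervals cover counting error only, and members that share sequence or peaks are not independent. Of the 10 genes with a pooled summit, 4 had a peak with a −log10 q of at least 1.3: W05B2.8, sls-2.1, sls-2.4 and sup-6. At the others it ran from 1.14 at F38E11.10 down to 0.0188 at T20D3.12, so these are weak peaks. Genes of other short RNAs had summits more often in the pooled list: 25.4% of the 346 snoRNA genes (20.9 to 30.4%) and 18.3% of the 612 tRNA genes (15.3 to 21.6%), while protein-coding genes stood at 9.25%. These differences between kinds of gene were not tested, since genes are not replicates of the experiment.

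Most of the pooled summits lay close to the snRNA start. With a window of 200 bp on either side of it, 8 snRNA genes still had one (6.20%, interval 2.72 to 11.9%), and the share of all genes was 4.75%. For 7 of the 10 genes the start nearest to the summit was their own (5.43% of the snRNA genes, against 6.53% of all genes); at the other 3 it was that of another gene. Of the 10 summits, 5 lay within 50 bp of the snRNA start, all upstream of it. The share of all genes at 50 bp was not counted, and the interval at 200 bp held the share of all genes. Closeness to the start is thus not shown to be particular to snRNA genes.

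**Figure D1:**
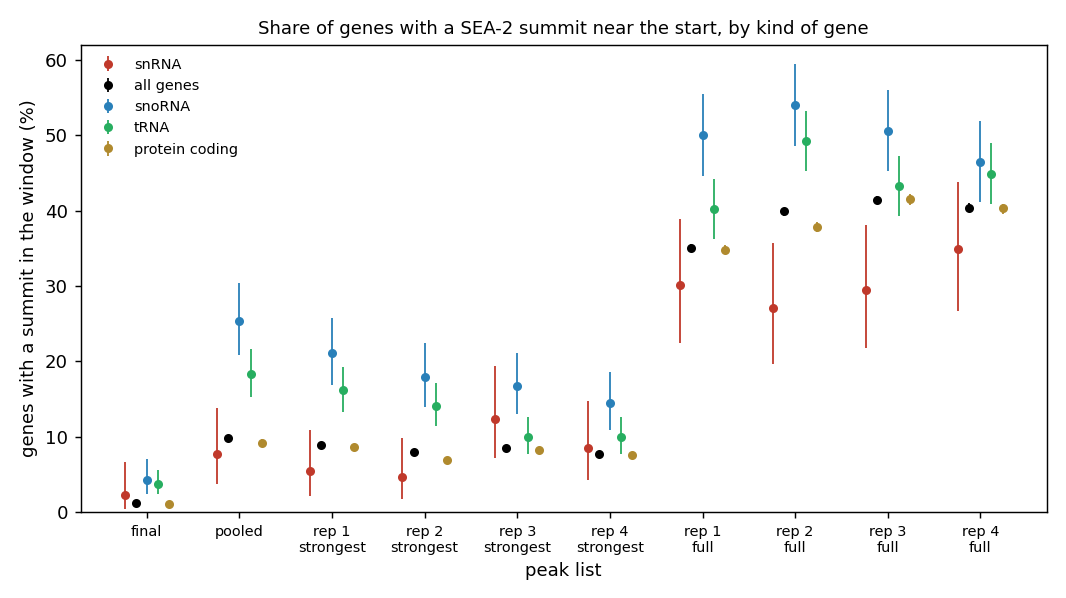
Percent of genes with a summit in the window (y axis) in each peak list (x axis), for snRNA genes, all genes, snoRNA, tRNA and protein-coding genes; points are shares, bars exact 95% binomial intervals, and "strongest" means the 3912 peaks of highest signal value of a replicate. The snRNA share was 2.33% in the final and 7.75% in the pooled list, with 25.4% of snoRNA genes in the pooled list.

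Counts differed between replicates. Among the 3912 peaks of highest signal value, a number equal to the pooled list, replicates 1 to 4 had summits at 7, 6, 16 and 11 snRNA genes, a mean of 10 ± 4.55 genes (SD, n = 4). The shares were 5.43, 4.65, 12.4 and 8.53%, against 8.92, 8, 8.58 and 7.74% of all genes. Each snRNA share's exact 95% interval held that replicate's share of all genes. Both replicates with a stated size range were below the share of all genes and both sonicated replicates above it. This split follows the labels' handling of the samples, but 2 against 2 samples cannot give an exact two-sided permutation p below 0.333. In all, 25 snRNA genes had such a peak in at least 1 replicate: 17 in 1 replicate, 4 in 2, 1 in 3 and 3 in 4. The matching shares of all genes were not counted, so these numbers cannot be read as high or low. The 3 genes found in all 4 replicates were W05B2.8, sls-2.1 and sls-2.4, those of the final list. When a pooled peak had to overlap one of the 3912 strongest peaks of each of 3 replicates, 3 to 4 of the 10 genes were left, depending on the replicate left out.

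In the full replicate lists, which include weak peaks entered for the test of reproducibility, 39, 35, 38 and 45 snRNA genes had a summit. These were 30.2, 27.1, 29.5 and 34.9% of them, each below the 35.1, 39.9, 41.4 and 40.4% of all genes in each replicate; the exact 95% intervals of replicates 2 (19.7 to 35.7%) and 3 (21.8 to 38.1%) did not reach the share of all genes, and those of replicates 1 and 4 did. Among genes with mostly single-copy sequence around the start, described further on, the direction turned in replicates 1 and 4. At least 1 full list held a summit at 77 snRNA genes (59.7%, interval 50.7 to 68.2%), against 77.0% of all genes, and 52 had none in any list. All 4 full lists held a summit at 10 snRNA genes (7.75%), against 8.65% of all genes. These 10 were not the 10 of the pooled list: 6 of them were in both, and sup-39, mir-1831, C27H5.11 and Y57G11C.35 were in the full lists of all replicates without a pooled summit. sup-39 and mir-1831, which overlap, had the same peaks.

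The transcribed sequences of the 129 genes were 22 to 187 bases long, with a median of 109, and 94 were distinct. Grouped by an identity of at least 80% over at least 60% of the longer sequence, they formed 22 families, 11 of them single genes. The family of W05B2.8 had 24 genes, of which 22 held ACAGAGA. The family of C05G6.4 had 19, of which 18 held GTAGTA, the letters by which U2 RNA pairs with the branch site. The family of sup-6 had 13, of which 12 held ACTTACC in the first 20 bases, where U1 RNA pairs with the 5′ splice site. The family of F38E11.10 had 12, of which 11 held CTTTTAC, part of the exon-binding loop of U5 RNA. By symbol there were 12 sls-1 genes, 18 sls-2 genes and 10 smy genes. The smallest member, mir-1831, is 22 bases long and lies inside sup-39; its symbol is that of a microRNA, although both annotations class it as snRNA.

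In the family with the U6 letters, W05B2.8 had the peak of rank 24 of 3912 by pooled signal value (signal value 114 on the peak caller's scale, against a median of 35.0 and a highest value of 234 in the pooled list; -log10 q 2.56). Its best peak ranked 13, 103, 42 and 123 in replicates 1 to 4, and the summits lay 32, 21, 21 and 26 bp before the start. All 4 replicates placed it among their 312 strongest peaks, the only snRNA gene for which this held. The mean summit position was -25.0 ± 5.23 bp (SD, n = 4), and the pooled summit lay at -27, within the TATATAA letters that start at -31. The gene lies inside dhc-4, which is transcribed in the same direction; the nearest start other than its own is that of col-94, a collagen gene, 1779 bp from the summit.

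F54D8.7, of the same family, ranked 605 in the pooled list, with a signal value of 46.9 and a summit at -31. In replicates 1 to 4 its best peak ranked 5153, 305, 1975 and 2402. Summits lay at -31, -30, -31 and -63. Replicates 1 to 3 thus differed by at most 1 bp, at the start of its TATATAA letters, and replicate 4 alone lay farther upstream. The peak also lay in the window of cox-6A, a cytochrome oxidase subunit gene, whose start was 795 bp from the summit. The third family member with a pooled summit, T20D3.12, had it at rank 3827, with its summit at -697, nearer to the start of coa-4 (181 bp), inside which it lies; its replicate summits, at -781, -674, -709 and -218, ranked 7648, 27582, 3060 and 21554.

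W05B2.8 is 1 of 14 genes with identical transcribed sequence. None of the 13 others had a pooled summit. Of these, 8 had a summit in at least 1 full replicate list (61.5%, beside 77.0% of all genes), at ranks from 3875 to 27378. None had one in all 4, which 8.65% of all genes had. The copies differ upstream: over the 100 bases before the start, R07E5.16 matched W05B2.8 at 50% of positions. F54D8.7, which had a peak, also matched it at 50%. The AACCC and TGTC pair at -67 was present in 5 of the 24 genes, W05B2.8, F54D8.7, Y17G9A.85, Y17G9A.90 and T08B6.62, and the latter 3 had no pooled summit. Within 170 bp of the start, 75.2% of the 31-base words of W05B2.8 occurred once in the genome, against 24.4 to 71.4% for the 13 copies. The highest copies, Y9C9A.111 (71.4%) and Y17G9A.90 (71.1%), came near W05B2.8. In the 170 bp before the start the share was 100% at these 2 copies, as at W05B2.8. At the other copies it ran from 4.29% at K09B11.16 to 97.1% at K09C6.12. The part of repeated sequence in the missing peaks was not tested.

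Of the 18 SL2 genes 2 had a final (11.1%) and 3 a pooled summit (16.7%), beside 1.3 and 9.86% of all genes. None of the 12 SL1 genes had either, and 12 genes are too few to tell 0 from those shares. sls-2.1 (chrII:5844865-5844974) ranked 145 in the pooled list with a signal value of 75.2. Its best peak ranked 242, 215, 942 and 817 in replicates 1 to 4, with summits at -39, -51, 47 and -44. The summit lay upstream of the start in replicates 1, 2 and 4 and inside the transcribed sequence in replicate 3; the pooled summit was at -50, beside the CCTCGAA letters. The nearest other start, that of ZK1248.17, was 676 bp from its own, and H41C03.3 also had the peak in its window.

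sls-2.2 lies 100 bp from the start of the noncoding RNA gene C17C3.23. Its pooled peak ranked 617 with a signal value of 46.8, and its summit, 142 bp downstream of the start, was nearer to C17C3.23 (42 bp). The replicate ranks were 28854, 1936 and 422 in replicates 2, 3 and 4, with summits at 63, 144 and 142. In replicate 1 the summit lay at 201, which is 1 bp outside the window, with rank 1625. The peak was therefore strong in both sonicated replicates and in replicate 1, and weak in replicate 2. sls-2.3, 70.0% identical to sls-2.1 over the 100 bases before the start, had no summit in any of the 4 full lists.

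sls-2.4 (chrI:4172206-4172315, plus strand), the other SL2 gene in the final list, ranked 176 with a signal value of 71.2. Its best peak ranked 965, 1527, 387 and 99 in replicates 1 to 4. Summits lay at -13, -21, -16 and -50, all upstream of the start. Ranks at sls-2.4 were better in replicates 3 and 4 and ranks at sls-2.1 better in replicates 1 and 2, a difference that was not tested. The noncoding RNA gene R12E2.18, 100 bp from the sls-2.4 start, and egg-5 also had the peak in their windows.

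The 4 SL2 genes that hold CCTCGAA within 100 bases upstream were sls-2.1, sls-2.2, sls-2.3 and sls-2.4, each at -58; this word was picked by reading the sequences after the peaks were known, and only describes them. It was present upstream of 0.362% of the other genes (0.595% on either strand), of which 13.2% had a pooled summit. A further 9 genes of the same SL2 family held the AACCC and TGTC pair. Of these 9, 7 had a summit in at least 1 full list (77.8%, near the 77.0% of all genes) and 0 in the pooled list, where 9.86% of all genes had one; with 9 genes this is no sign of a difference. Among these 9, only sls-2.8 reached the 3912 strongest peaks of a replicate, at rank 1212 in replicate 3. No other gene with an sls-2 symbol and without a pooled summit did. ZK1251.14, which is in the same family by sequence and had no pooled summit, ranked 3800 in replicate 3.

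**Figure D2:**
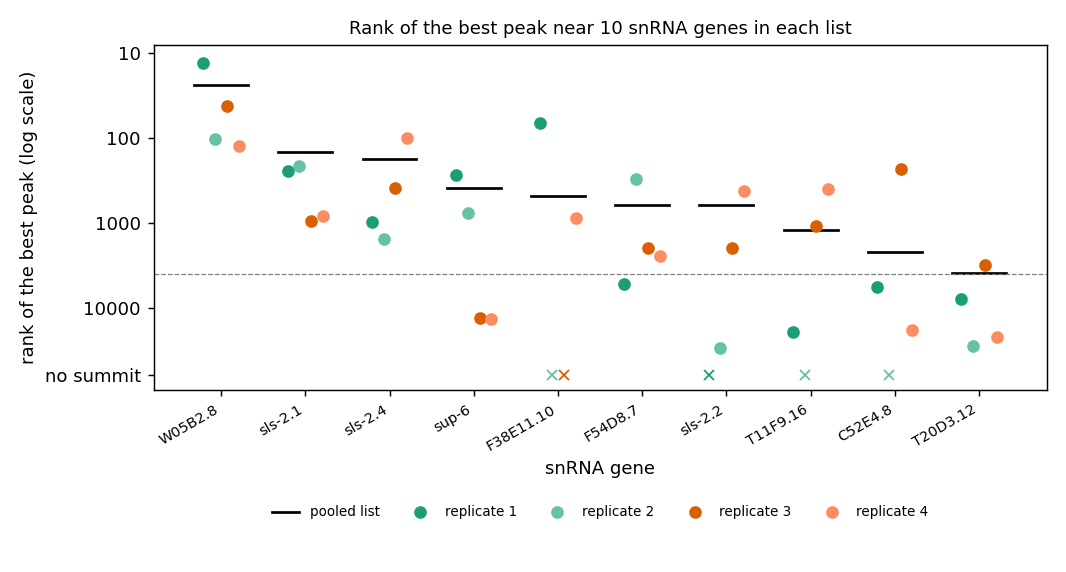
Rank by signal value of the best peak in the window (y axis, log scale, strongest at the top) for the 10 snRNA genes with a pooled summit (x axis); dots are the 4 replicates, bars the pooled list, crosses lists with no summit in the window, and the dashed line rank 3912. W05B2.8 ranked between 13 and 123 in all replicates, while sup-6 ranged from 269 to 13339.

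Among genes with the U1 letters, sup-6 (chrII:12944803-12944967, minus strand) had a pooled peak of rank 385 and signal value 54.3. The name comes from mutations that suppress splice-site defects. This peak was just outside the final list, whose lowest signal value was 57.9 and which held every pooled peak at or above that value; sls-2.4, at 71.2, was the weakest snRNA gene peak inside it. Ranks were 269, 765, 12940 and 13339 in replicates 1 to 4, strong in the replicates with a stated size range and weak in the sonicated ones. Summits lay at 160, -71, 159 and 148, near the end of the 165 transcribed bases in all but replicate 2, and the pooled summit at 190, past it. The gene lies inside F58G1.7, and the start of the noncoding RNA gene F58G1.11 is 17 bp from its own. sup-39 and C27H5.11, of the same family, had a summit in all 4 full lists, but only at ranks from 7548 to 28617.

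F38E11.10, which gives its name to the family with the U5 letters, had a pooled peak of rank 477 and signal value 50.6 at 138 bp downstream of the start. The best peak ranked 66 in replicate 1, at 135, and 869 in replicate 4, at -236. Replicates 2 and 3 had no summit in the window. The replicates thus did not share a position, and the pooled summit lay 14 bp from the start of the antisense noncoding RNA gene F38E11.24. ChIP peaks carry no strand, so the 2 genes cannot be told apart.

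T11F9.16 and C52E4.8 belong to a family of 5 genes of 142 to 144 bases without any of the 4 sets of letters above. T11F9.16 ranked 1196 in the pooled list, with its summit at -411. It ranked 19041, 1090 and 393 in replicates 1, 3 and 4, with summits at -384, -351 and -426, and had no summit in replicate 2. The 31-base words under this pooled peak all occurred once in the genome (100%), and the nearest start of a gene of another kind, dhs-19, was 1483 bp away. C52E4.8 ranked 2193 with its summit at -47. Its replicate summits belonged to 2 places, -38 in replicate 3 (rank 233), and -556 and -543 in replicates 1 and 4 (ranks 5589 and 17979). The same pooled peak lay in the window of snr-4, which encodes an Sm protein that binds snRNAs.

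**Figure D3:**
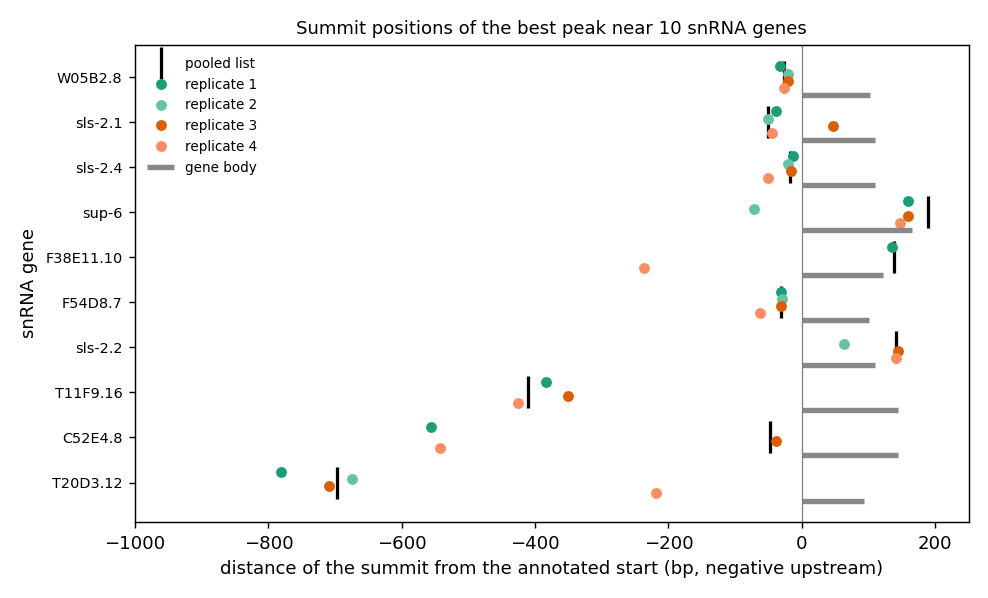
Position of the summit of the best peak relative to the annotated start (x axis, bp, negative upstream) for the 10 snRNA genes with a pooled summit (y axis); dots are replicates, vertical bars the pooled list and grey bars the transcribed length. At W05B2.8 all summits lay between -32 and -21, whereas those of C52E4.8 lay at -556, -543 and -38.

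Other families had no pooled summit. Of the 19 genes of the C05G6.4 family, with the U2 letters, 8 had a summit in at least 1 full list (42.1%), below the 77.0% of all genes; the median share of single-copy words around the starts of this family was 38.3%, whose part in this was not tested. Y57G11C.35 had it in all 4, at ranks 947, 23520, 21229 and 7686. Of the 10 smy genes, which encode SmY RNAs, 9 had a summit in at least 1 full list, beside 77.0% of all genes, and 3 reached the strongest 3912 peaks, each in 1 sonicated replicate: smy-6 at rank 746 and smy-5 at rank 2144 in replicate 3, and smy-1 at rank 2884 in replicate 4. Each single list of 3912 had a summit at 7.74 to 8.92% of all genes. The share of all genes in at least 1 such list was not counted, so 3 of 10 cannot be read as many or few. Of the 12 sls-1 genes, arranged in tandem on chromosome V, a single one, sls-1.12 at the edge of the array, had a summit, at rank 17158 in replicate 4. In 11 of these 12 genes no 31-base word within 170 bp of the start was found once in the genome (0%), and at sls-1.12 the share was 9.97%.

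Sequence around the snRNA gene starts was often repeated in the genome. The median share of 31-base words found once within 170 bp of the start was 69.1% over the 129 genes, against 100% over all other genes and 82.3% over tRNA genes. The share was under 50% at 36 of them (27.9%) and at 3.59% of the other genes. Among the 52 snRNA genes with no summit in any list the median was 46.0%, and among the 77 with one it was 77.2%. All 10 genes with a pooled summit lay between 61.4 and 92.6%. How the authors' alignment treated reads that match several places is not given in the sources used here. Restricted to the 93 snRNA genes with at least 50% single-copy words, a choice made after seeing the data, the pooled share was 10.8% against 10.2% of all such genes, and the share with a summit in at least 1 full list was 73.1% against 79.1%. In the full lists of replicates 1 to 4 the shares were 37.6, 35.5, 39.8 and 41.9% of these snRNA genes, against 36.1, 41.1, 42.7 and 41.6% of all such genes, so they were higher in replicates 1 and 4 and lower in replicates 2 and 3. In all 4 full lists the share was 10.8% against 8.94%, also the opposite direction to that over all 129 genes.

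**Figure D4:**
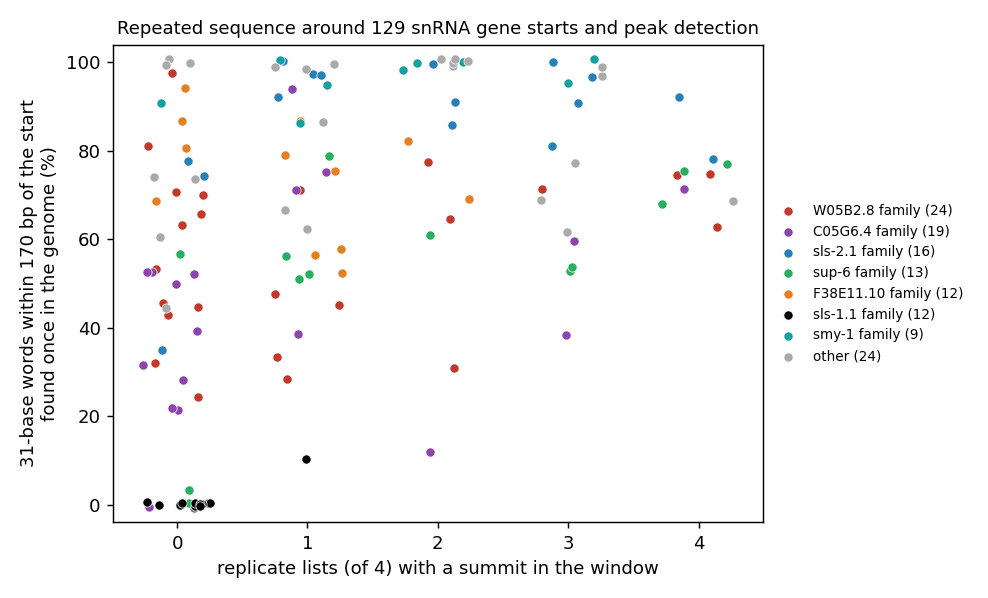
Percent of 31-base words within 170 bp of the start that occur once in the genome (y axis) against the number of replicate lists with a summit in the window (x axis), 1 dot for each of 129 snRNA genes, coloured by family, with small random shifts so that dots do not hide each other. The sls-1 genes sit at 0% with no list except sls-1.12, and no gene with 3 or 4 lists is at 0%.

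Certain words, chosen by reading the sequences before these genes, were common upstream of snRNA genes with and without peaks. The pair AACCC, 6 bases of any kind and TGTC lay within 100 bases upstream, on the gene's strand, of 33 snRNA genes (25.6%), with AACCC starting between -71 and -55, and upstream of 0.174% of the other genes (0.185% on either strand). Of the 33, 3 had a pooled summit (W05B2.8, F54D8.7 and sup-6), and 30 did not; this share, 9.09%, is close to the 9.86% of all genes, and 7 of the 96 snRNA genes without the pair (7.29%) had one. Of the other genes with the pair, 51 in number, 17.6% had a pooled summit. TGTC alone, which that pair contains, was found at 79.1% of snRNA genes and 27.5% of other genes. TATATAA was found at 18 snRNA genes (14%) and 2.39% of other genes, and 2 of the 18 had a pooled summit. A match only says that the letters are there. Within 50 bp of the summit the 10 peaks had a median GC content of 47.5%, against 41.6% over the pooled list, and none held GAGAGA on either strand, which 18.3% of the pooled peaks did. The GC content of the 10 ran from 26.7% at T11F9.16 to 52.5% at F54D8.7. With 10 peaks neither value is a sign of a difference from the list.

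Of the snRNA genes 63 lay inside a protein-coding gene, and 3 of these had a pooled summit (4.76%), as did 7 of the other 66 (10.6%), beside 9.86% of all genes. Lists of genes whose products make snRNAs or bind them were counted in the same way. Of 20 matched genes for snRNA transcription (SNAPc, its TATA-binding partners and the Integrator complex), 0 had a final and 1 a pooled summit: ints-4, an Integrator subunit, at rank 1133. Its replicate ranks were 3544, 11307, 1208 and 11071. The SNAPc gene snpc-3.4 had no pooled summit but had one in all 4 replicate lists, at ranks 1830, 2874, 9134 and 929. Of 19 genes for Sm and Lsm proteins and their loading, 1 had a final and 4 a pooled summit. The final one was snpn-1, whose product resembles the snRNP import adaptor snurportin, at rank 245, with replicate ranks of 169, 345, 1254 and 1470; the others were lsm-6 (314), lsm-7 (1864) and snr-4 (2193). At lsm-6, which encodes a subunit of the ring on the 3′ end of U6 RNA, the peak ranked 258 and 88 in replicates 1 and 3, and replicates 2 and 4 had no summit in the window. Of 23 matched genes for snRNP proteins, 0 had a final and 4 a pooled summit: prp-31 (497), uaf-2 (1394), prp-19 (1705) and rsr-1 (2052). All 30 spliced leader genes together had 2 final and 3 pooled summits, or 10%. The shares of the 3 protein lists in the pooled list were 5, 21.1 and 17.4%, beside the 9.86% of all genes; with so few genes nothing particular to a list can be read from them.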

How the data were processed

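ChIP-seq peak lists of SEA-2::GFP from 4 biological replicates were read as deposited, in ce11 coordinates, per the file headers and records. The deposited signal value (column 7) is the authors' peak score, on a scale not stated; the deposited −log10 q (column 9) is theirs too. The deposited summit offset gave each summit. The sources used here name no aligner, peak caller, reproducibility threshold or read number, so depth is unknown. Per the file records, the pooled list came from all 4 alignments with 1 control, each replicate list from its own alignment with the same control, and the final list from these lists; they are thus not independent. Peak widths were 340 bp in the pooled list and 370, 296, 364 and 376 bp in replicates 1 to 4.

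Peaks were ranked by signal value. The window around every annotated transcript start held 1000 bp before it and 200 bp after it. Symbols came from RefSeq through the WormBase identifier (129 of 129 matched). Families used blastn 2.17.0; counts used Python 3.11.15, numpy 2.4.6 and scipy 1.17.1, with exact (Clopper-Pearson) 95% intervals. The window count was tested on simulated summits. Signal values were not compared between lists. Named genes were those with a final summit, the 15 strongest in the pooled list (only 10 had one), those among the 312 strongest peaks of at least 2 replicates, and members of the lists of pathway genes with a final summit; other genes named were chosen after their values were seen. The snRNA genes and the lists were chosen with earlier results of these data known. In the lists, brf-2, dic-1, ints-10, ints-12, snpc-1.5, prp-11 and sap-1 matched no symbol. Alternatives covered windows, overlap in place of summits, stricter lists, ranking, identical genes and leaving out each replicate. The ce10 copies of the lists were not used.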

Additional observations from a re-analysis of the deposited data

Results flagged for a closer look

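In 3 of the 14 sets of 4 replicate values examined, 1 replicate stood far from the other 3 (Dixon's 95% criterion, which chance exceeds in about 1 in 20 sets). All 3 were summit positions. At sls-2.1 the summit of replicate 3 lay at 47, inside the transcribed sequence, with the others at -51, -44 and -39. At sup-6 the summit of replicate 2 lay at -71, with the others at 148, 159 and 160. At F54D8.7 the summit of replicate 4 lay at -63, with the others at -31, -31 and -30. No rank and neither count of genes per replicate was singled out.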

How the results depend on the processing

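The count of 3 snRNA genes with a final summit stayed at 2 to 3 in every alternative, 3 with any replicate left out. The pooled count of 10 fell to 6 with a window of 500 bp upstream to 100 bp downstream and to 4 with a −log10 q of at least 1.3. Leaving out 1 replicate and requiring overlap with the strongest peaks of the other 3 gave 3 to 4 of the 10, by construction a stricter rule. The mean of 10 genes per replicate was 2.75 with the 312 strongest peaks, 16.2 with 10000 and 39.2 with the full lists, and 8 to 11.3 without 1 replicate. The 10 genes found in all 4 full lists were 4 with the window of 500 and 100 bp and 5 with 200 bp on either side, and 12 to 15 when 3 replicates were required. Every other alternative, the 7 genes nearest to a pooled summit included, stayed within 1.5 times. No paired analysis was possible because there was a single group. Repeated sequence and the unknown depth limit what a missing peak can show.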
